A study of Homo sapiens with 12 samples.

Results

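Transcripts of the replicative helicase were followed in 2 human B cell lymphoma lines after exposure to ST5589. The 10 genes described are MCM2, MCM3, MCM4, MCM5, MCM6, MCM7, CDC45, GINS1, GINS2 and GINS3, subunits of the MCM ring, CDC45 and the GINS complex, picked by gene symbol out of 11419 genes tested. They were read by 14 probes, 3 for MCM7, 2 each for MCM3 and MCM4, and 1 for every other gene. All 14 passed the filter on dim probes. TMD8 comes from a diffuse large B cell lymphoma with an activated B cell-like profile, and DOHH2 is a germinal centre type line from a transformed follicular lymphoma. Each line, grown in vitro, received either DMSO, the vehicle, or ST5589 at 300 nM, a derivative of the atypical retinoid ST1926. Total RNA of 3 samples per group was hybridised, each to a single-colour Illumina beadchip array, which gave 12 arrays in 4 groups. How long the cells were exposed, and whether the replicates were separate cultures, is not stated in the labels. P-values therefore measure only the spread between these samples, which may be technical.

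The helicase that unwinds DNA at replication forks is assembled in steps. In G1, the origin recognition complex, CDC6 and CDT1 load a ring of the MCM2, MCM3, MCM4, MCM5, MCM6 and MCM7 proteins onto DNA as an inactive double hexamer. At the start of S phase, CDC45 and the GINS complex join the ring and turn it into the active CMG helicase (CDC45, MCM, GINS). GINS4, the remaining GINS subunit, is not analysed here. In dividing cells these genes are transcribed mainly around the G1/S transition, where E2F factors act, and their transcripts are therefore common markers of cells that enter or pass S phase. The values come from bulk RNA, in which more cells at that stage and more RNA per cell cannot be told apart.

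Because the promoters of MCM genes are a textbook example of E2F control, the RefSeq windows around the annotated starts (GRCh38.p14, 250 bases before to 50 after each start) were searched for the E2F consensus written as TTTCCCGC, TTTGGCGC, TTTCGCGC or TTTGCCGC, on both strands. Windows were at hand for 8 of the 10 genes, all but MCM4 and MCM5. A match was found in 7 of the 8 (MCM2, MCM3, MCM6, MCM7, GINS1, GINS2 and GINS3), against 3.99% of all 27305 genes with such a window. With only the 250 bases before the start, 4 of the 8 genes held a match, against 3.4% of all genes. The stretches that hold the matches are shown because they are what most of these genes share in sequence; they run 5′ to 3′ on the strand of the gene, and capitals mark the matched letters.
MCM2 (chr3:127598406-127598435, plus strand): aaccactTTTCGCGCGAAAcctggttgttg
MCM3, upstream match (chr6:52284869-52284956, minus strand): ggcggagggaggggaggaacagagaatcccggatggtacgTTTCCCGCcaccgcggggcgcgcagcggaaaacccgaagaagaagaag
MCM3, match at the start (chr6:52284728-52284757, minus strand): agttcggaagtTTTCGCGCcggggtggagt
MCM6 (chr2:135876482-135876635, minus strand): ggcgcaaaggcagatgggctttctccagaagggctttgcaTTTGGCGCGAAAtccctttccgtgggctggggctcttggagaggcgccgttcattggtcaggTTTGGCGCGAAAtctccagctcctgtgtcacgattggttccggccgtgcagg
MCM7, upstream match (chr7:100101537-100101624, minus strand): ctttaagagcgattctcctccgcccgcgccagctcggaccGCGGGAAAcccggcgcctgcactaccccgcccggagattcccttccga
MCM7, match at the start (chr7:100101398-100101446, minus strand): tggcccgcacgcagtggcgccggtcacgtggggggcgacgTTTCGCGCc
GINS1 (chr20:25407667-25407696, plus strand): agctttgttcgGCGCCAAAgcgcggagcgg
GINS2 (chr16:85688955-85689025, minus strand): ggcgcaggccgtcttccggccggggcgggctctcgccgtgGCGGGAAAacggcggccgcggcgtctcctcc
GINS3 (chr16:58392455-58392484, plus strand): cgtccccgggcGCGGGAAAcgagtttcaat
In MCM2 and MCM6 the matches of both strands overlap in a palindrome-like run, once in MCM2 and in 2 separate places in MCM6. MCM7 and CDC45 each have 3 annotated starts with a window. The MCM7 matches lie in the window of its farthest upstream start alone, and no CDC45 window held the searched letters. The pentamer CCAAT, the core of the NF-Y site, was present in 6 of the 8 genes against 39.7% of all genes. The letters TTTGAA, the core of the element known from promoters of mitotic genes, were in 0 of the 8 against 18.2% of all genes. A match is a description of the sequence and not a measured binding site.

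**Figure D1:**
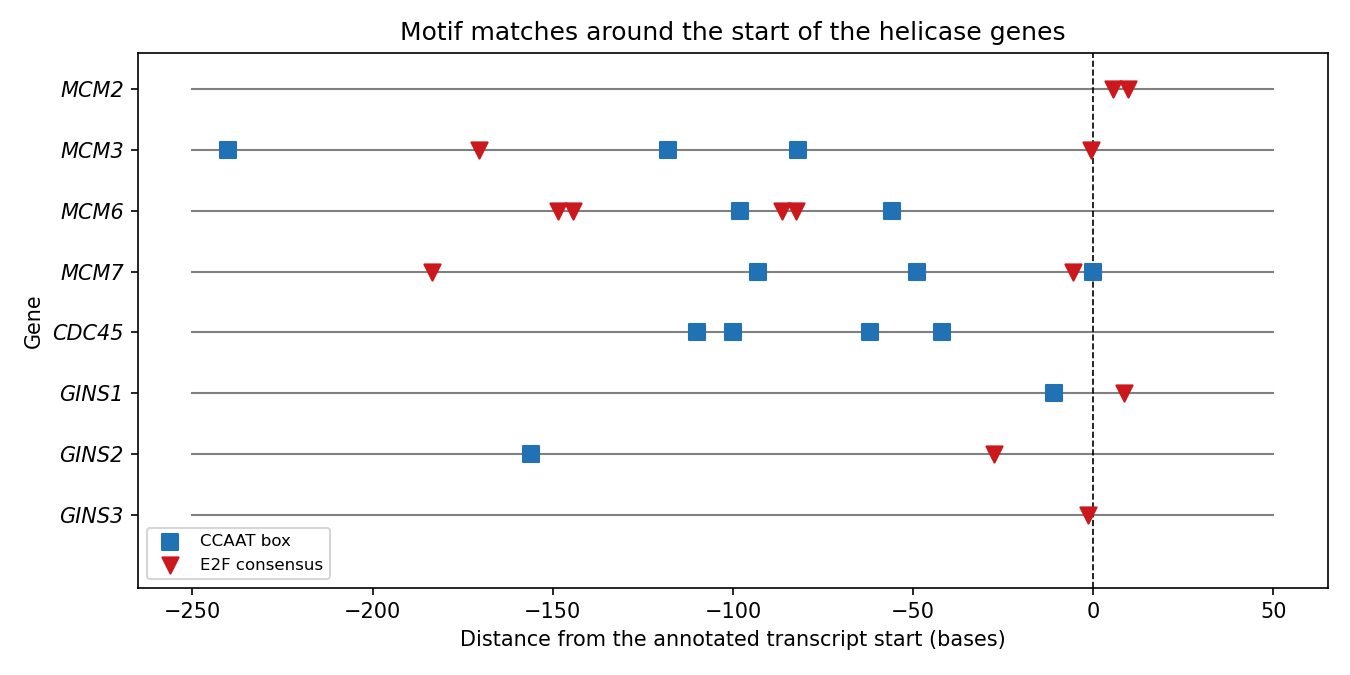
Positions of E2F consensus matches (red triangles) and CCAAT matches (blue squares) on either strand, in bases from the annotated start (dashed line), for the 8 helicase genes with a RefSeq window; for MCM7 and CDC45 1 of their 3 windows is drawn. E2F matches lie on every line but that of CDC45, and close to the start itself in MCM2, MCM3, MCM7, GINS1 and GINS3.

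The arrays had a median intensity of 90.04 to 113.5 and 38.0% to 46.1% of probes above background. TMD8 DMSO array 1 had the highest median intensity. With 40.9% it had fewer probes above background than the other TMD8 arrays (43.45% to 46.1%). The B cell markers CD79A, CD79B, MS4A1 and CD22 were above background in every array, while PAX5 was above background in none. The activated B cell markers were all above background in both lines. Under DMSO all 5 were called lower in DOHH2 than in TMD8, which goes with the types given for the lines. The 4 B cell markers named above were called lower in DOHH2 too, and so were 27.7% of all genes. Of the 5 germinal centre markers, MME was above background in DOHH2 only. BCL6 and MYBL1 were above background in all TMD8 arrays but in 0 of 3 DOHH2 arrays under DMSO, and LMO2 and SERPINA9 in all arrays of both lines. Under DMSO, 4 of these 5 (BCL6, MYBL1, LMO2 and SERPINA9) were called lower in DOHH2 than in TMD8 and 1, MME, higher, so the list as a whole went against the germinal centre type given for DOHH2. Of the 6 T and NK cell markers, 0 were above background in all arrays of any group. Of the 5 myeloid markers, 2 to 3 were above background in all arrays of each group, among them CD68 in every array and S100A8 in DOHH2, and of the 5 stromal and epithelial markers 0 to 1. These lists were not tested against the helicase values. Each line lay on a chip of its own, and on each chip the vehicle arrays sat ahead of the ST5589 arrays, so that line and chip, and treatment and place, cannot be told apart. The median of 14 small nuclear RNA genes was 9.15 to 9.24 under DMSO and 10.02 to 11.11 under ST5589 in TMD8 (7.93 to 8.23 in DOHH2), and its part in the helicase values was not tested. In DOHH2 ST5589 array 2, 53 of 62 probes bright in TMD8 and at background in the other DOHH2 arrays were above background. The median signal of the 62 was 3.76% of that in TMD8. For each other DOHH2 array the count was 0 of 9. That smaller set leaves out the probes above background in array 2, so the counts are not like rates. The gene named by the study's title, AURKA, which encodes the mitotic kinase Aurora A, had a log2 fold change of -0.84 ± 0.09 (SE) in TMD8 (limma adjusted p = 3.8e-04) and of -0.45 ± 0.09 in DOHH2 (limma adjusted p = 0.224).

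In TMD8, transcripts of the helicase lay higher under ST5589. MCM4, a subunit of the loaded ring, rose 1.46-fold, and GINS2, a subunit of the GINS complex, rose 1.51-fold. The other 8 genes had fold changes from 1.06 for GINS1 to 1.47 for CDC45, none of which passed the threshold. The median log2 fold change of the 10 genes was 0.40, against 0.01 over all genes. Values are normalized log2 intensities, each gene is represented by its brightest probe, fold changes carry the standard error of the limma fit, and a gene was called at a Benjamini-Hochberg adjusted p under 0.05 over all 11419 genes.

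Of the 10 genes, 2 were called higher, against 0.56% of all genes, and 0 were called lower, against 0.368%. All 10 had a log2 fold change above 0, as had 52.7% of all genes. In 8 of the 10, every treated array lay above every DMSO array, which held for 9.62% of all genes. Before adjustment, 9 of the 10 had a limma p under 0.05 on the higher side, against 4.32% of all genes.

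Among the ring subunits, MCM4 had values of 10.72, 10.68 and 10.74 under DMSO and of 11.36, 11.28 and 11.14 under ST5589. The DMSO arrays were almost equal, and the lowest treated array stood well above them. This was a log2 fold change of 0.55 ± 0.11 (95% interval 0.31 to 0.79; limma adjusted p = 0.0356). A second MCM4 probe gave 0.46 ± 0.19.

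MCM5, which forms the gate of the ring with MCM2, had 10.75, 10.64 and 10.75 under DMSO and 11.04, 11.19 and 11.12 under ST5589. The groups did not overlap, and the arrays within each differed little. The log2 fold change of 0.40 ± 0.13 did not pass (limma adjusted p = 0.288). MCM2 itself, a histone-binding subunit, had 9.31, 9.58 and 9.54 under DMSO and 9.82, 9.78 and 10.02 under ST5589. DMSO array 1 was the lowest of the 6, and all treated arrays lay above the DMSO arrays. Its log2 fold change was 0.39 ± 0.13 (limma adjusted p = 0.310).

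MCM3 had 12.12, 12.32 and 12.32 under DMSO and 12.72, 12.63 and 12.60 under ST5589, again without overlap. It had a log2 fold change of 0.40 ± 0.11 (limma adjusted p = 0.175), and a second MCM3 probe gave 0.39 ± 0.17. Of the brightest probes of the ring subunits, that of MCM6 shifted least, though without DMSO array 1 MCM7 was lower (0.19 against 0.23). The MCM6 values were 11.02, 11.18 and 11.09 under DMSO and 11.33, 11.38 and 11.38 under ST5589. This was a log2 fold change of 0.27 ± 0.09 (limma adjusted p = 0.322).

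For MCM7, a catalytic partner of MCM4 in the ring, the groups overlapped. It had 11.68, 12.003 and 12.08 under DMSO and 12.38, 12.07 and 12.25 under ST5589, a log2 fold change of 0.31 ± 0.13 (limma adjusted p = 0.632), and of 0.19 ± 0.13 without DMSO array 1. The 3 MCM7 probes disagreed in size. The further probes gave 0.20 ± 0.23 and -0.02 ± 0.10, the last from a probe close to background, above it in 11 of the 12 arrays.

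CDC45, the subunit whose recruitment marks helicase activation, had 10.30, 10.70 and 10.66 under DMSO and 11.11, 11.15 and 11.08 under ST5589. The treated arrays were tight and lay above all DMSO arrays, of which array 1 was the lowest. The log2 fold change was 0.56 ± 0.13 and missed the threshold (limma adjusted p = 0.0682). Without DMSO array 1 it was 0.43 (limma adjusted p = 0.251).

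The GINS genes were unlike each other. GINS2 had 9.51, 9.76 and 9.89 under DMSO and 10.30, 10.35 and 10.28 under ST5589, with a clear gap between the groups. Its log2 fold change was 0.59 ± 0.12 (95% interval 0.33 to 0.85; limma adjusted p = 0.0385), the largest of the 10 genes in TMD8. GINS3 had 9.44, 10.08 and 9.88 under DMSO and 10.34, 10.22 and 10.14 under ST5589. DMSO array 1 was far below the other DMSO arrays, and the log2 fold change of 0.44 ± 0.14 did not pass (limma adjusted p = 0.342). Without that array it was 0.25 ± 0.12. GINS1 had 6.32, 6.18 and 6.48 under DMSO and 6.45, 6.33 and 6.44 under ST5589, and the groups overlapped. Its log2 fold change was 0.08 ± 0.10 (95% interval -0.13 to 0.29), and 0.01 to 0.16 without 1 array. GINS1 was read by a dim probe, above background in 10 of the 12 arrays, close to the level at which fold changes are compressed.

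The 2 calls in TMD8 did not hold in every fit with a single array left out. The log2 fold change of MCM4 stayed between 0.49 and 0.61. Its limma adjusted p was 0.0997, 0.142 and 0.122 without TMD8 DMSO array 1, 2 or 3. It was 0.186, 0.148 and 0.0673 without TMD8 ST5589 array 1, 2 or 3, and 0.0581 without DOHH2 ST5589 array 2, which enters through the shared estimate of spread. GINS2 stayed between 0.49 and 0.68 on the log2 scale. Its limma adjusted p was 0.150 and 0.112 without TMD8 DMSO array 1 or 2, and 0.135, 0.173 and 0.129 without TMD8 ST5589 array 1, 2 or 3. It was 0.0656 without DOHH2 DMSO array 3 and 0.0509 without DOHH2 ST5589 array 2. Without the 3 arrays farthest from their own groups (array 1 of each DMSO group and array 3 of DOHH2 under ST5589), an alternative chosen after seeing the data, 3 of the 10 genes were called higher, MCM4, CDC45 and GINS2. When the arrays were brought to 1 shared median rather than quantile-normalized, 0 of the 10 were called. The median of the 10 was 0.16, against -0.09 over all genes. All 10 were still above 0, though MCM6 (0.003 ± 0.20) and MCM7 (0.007 ± 0.22) barely so. That scaling left 9 genes called in TMD8, 77.8% of them higher, against 106 genes with 60.4% higher in the quantile-normalized data.

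**Figure D2:**
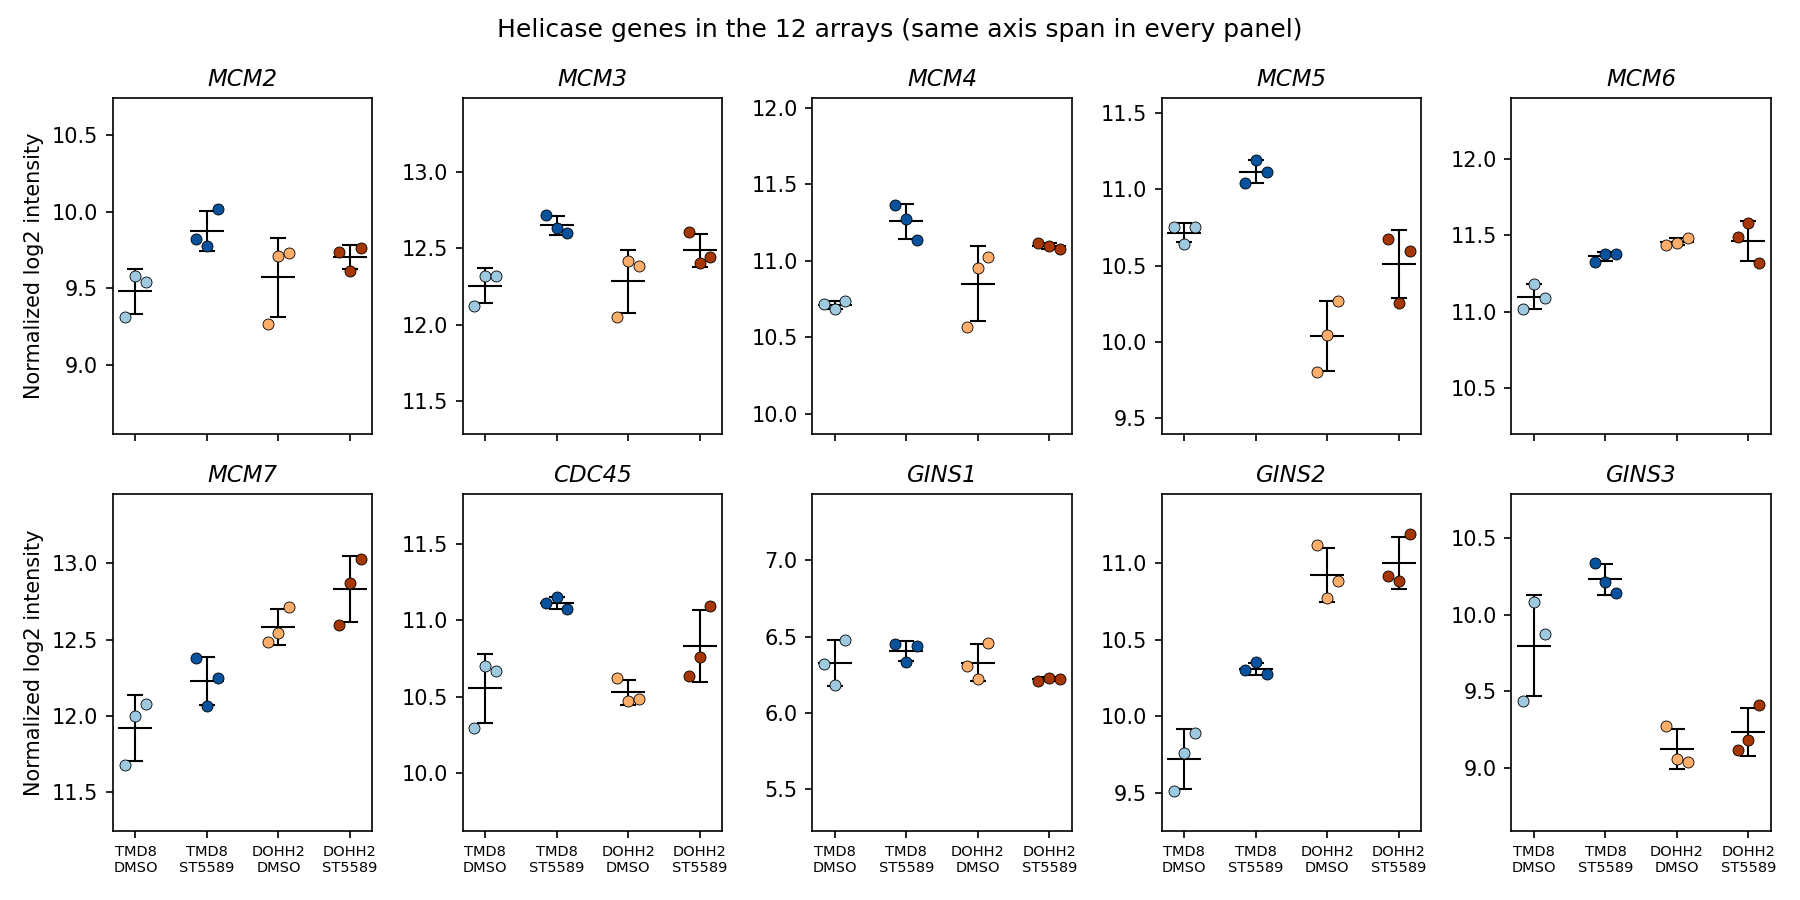
Normalized log2 intensity of each helicase gene in every array (points), with the mean and SD of the 3 arrays of each group (bars), for TMD8 and DOHH2 under DMSO or ST5589; every panel spans the same range. The TMD8 groups do not overlap except for MCM7 and GINS1, while in DOHH2 only MCM4 and CDC45 show no overlap.

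In DOHH2, no helicase gene was called. MCM5 had the largest fold change of the 10 genes, 1.38, and GINS1 the lowest, 0.93. The median log2 fold change was 0.17, against 0.01 over all genes. The count of genes called was 0 of 10 in each direction, against 0.0175% of all genes higher and 0.0175% lower, with limma. Before adjustment, 3 of the 10, MCM4, MCM5 and CDC45, had a limma p under 0.05 on the higher side, against 2.58% of all genes. A log2 fold change above 0 was seen in 9 of the 10, against 53.3% of all genes.

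By the brightest probes, the treated arrays lay wholly above the DMSO arrays for 2 of the 10 genes, MCM4 and CDC45, against 4.41% of all genes. MCM4 had 10.57, 10.96 and 11.02 under DMSO and 11.12, 11.10 and 11.08 under ST5589, a log2 fold change of 0.25 ± 0.11 (limma adjusted p = 0.927). DMSO array 1 was the low array, and without it the value was 0.11 ± 0.09. The groups overlapped by a second MCM4 probe, which gave 0.20 ± 0.19. It had 9.30, 9.94 and 9.93 under DMSO and 10.31, 9.82 and 9.65 under ST5589. CDC45 had 10.62, 10.47 and 10.48 under DMSO and 10.64, 10.76 and 11.09 under ST5589, so that the gap between the groups was narrow and array 3 stood out. The difference of 0.30 ± 0.13 on the log2 scale did not pass (limma adjusted p = 0.927) and was 0.17 ± 0.12 without ST5589 array 3.

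MCM5 had 9.81, 10.04 and 10.27 under DMSO and 10.68, 10.26 and 10.59 under ST5589. The groups met at DMSO array 3 and ST5589 array 2, the array in which probes bright in TMD8 were above background. Whether that bears on the MCM5 value was not tested. The resulting log2 fold change of 0.47 ± 0.13 (95% interval 0.19 to 0.74; limma adjusted p = 0.673) became 0.60 ± 0.12 without ST5589 array 2 (limma adjusted p = 0.240).

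Among the other ring subunits, MCM2 had 9.27, 9.71 and 9.73 under DMSO and 9.74, 9.61 and 9.76 under ST5589. MCM3 had 12.05, 12.42 and 12.39 under DMSO and 12.61, 12.40 and 12.45 under ST5589. DMSO array 1 was the low array in both. Without it, the log2 fold change of MCM2 went from 0.13 to -0.02 and that of MCM3 from 0.20 to 0.09. A second MCM3 probe gave 0.04 ± 0.17 with all arrays. MCM6 had 11.44, 11.45 and 11.48 under DMSO and 11.49, 11.58 and 11.32 under ST5589, a log2 fold change of 0.01 ± 0.09 (95% interval -0.18 to 0.19) that ran from -0.05 to 0.08 without 1 array. MCM7 had 12.48, 12.55 and 12.72 under DMSO and 12.60, 12.87 and 13.02 under ST5589, a log2 fold change of 0.25 ± 0.13, and of 0.15 ± 0.14 without ST5589 array 3. Its groups overlapped, and its further probes gave 0.002 ± 0.23 and -0.01 ± 0.10.

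The GINS genes showed no separation in DOHH2. GINS2 had 11.12, 10.77 and 10.89 under DMSO and 10.92, 10.89 and 11.20 under ST5589, a log2 fold change of 0.07 ± 0.12 (95% interval -0.19 to 0.34). GINS3 had 9.27, 9.06 and 9.04 under DMSO and 9.11, 9.18 and 9.41 under ST5589, a log2 fold change of 0.11 ± 0.14. For both genes the highest of the treated arrays was array 3. Without it GINS2 was at -0.02 and GINS3 at 0.02, and over all fits without 1 array GINS2 ran from -0.02 to 0.17 and GINS3 from 0.02 to 0.19. GINS1 had 6.31, 6.22 and 6.46 under DMSO and 6.21, 6.23 and 6.22 under ST5589, a log2 fold change of -0.11 ± 0.10, with 2 of 3 arrays above background in each group, and ran from -0.16 to -0.04 without 1 array. With arrays scaled to a common median, 7 of the 10 genes were above 0 in DOHH2 and the median was 0.01, against -0.04 over all genes.

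**Figure D3:**
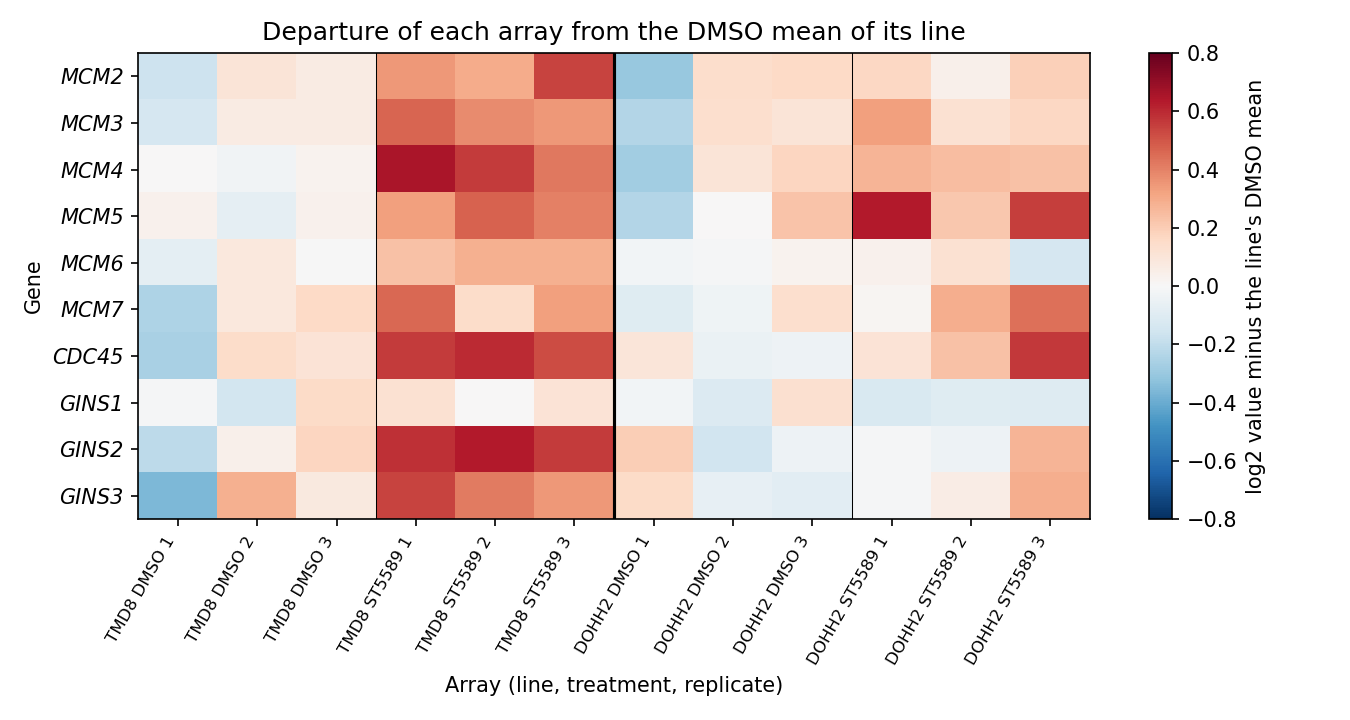
Departure of each helicase gene in each array from the DMSO mean of its line, as a difference of log2 values (red higher, blue lower); rows are genes and columns arrays. All 3 treated TMD8 arrays are red for nearly every gene, while red in the treated DOHH2 arrays is paler and patchy, and DOHH2 DMSO array 1 is blue for MCM2, MCM3, MCM4 and MCM5.

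In single arrays, the 10 genes departed from the DMSO mean of their line by an average of 0.43, 0.38 and 0.39 on the log2 scale in the treated TMD8 arrays. The TMD8 DMSO arrays lay at -0.14, 0.06 and 0.09. All 10 genes lay above the DMSO mean in each treated TMD8 array. In DOHH2 the treated arrays averaged 0.14, 0.12 and 0.25, and the DMSO arrays -0.07, -0.004 and 0.08, with 7, 8 and 8 of the 10 genes above the DMSO mean in the treated arrays. The treated arrays of both lines thus lay above their own DMSO arrays, by a wider margin in TMD8.

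The response of the lines was set against each other gene by gene. The log2 fold change in DOHH2 minus that in TMD8 was below 0 for 9 of the 10 genes, against 48.7% of all genes, with a median of -0.26. The exception was MCM5, at 0.07 ± 0.18. Which genes were above 0 depended on single arrays. Without 1 array MCM5 ran from -0.05 (without DOHH2 DMSO array 1) to 0.20, and MCM7, at -0.06 ± 0.19 with all arrays, from -0.16 to 0.06 (without TMD8 DMSO array 1). None of the 10 differences was called with limma, against 0.0175% of all genes in either direction. GINS2 differed most, by -0.52 ± 0.17 (95% interval -0.89 to -0.14), which had a limma p of 0.0101 before adjustment and an adjusted p of 0.9998. It was the only gene of the 10 with an unadjusted p under 0.05 on the lower side, where 1.47% of all genes lay. For MCM4 the difference was -0.30 ± 0.16 (95% interval -0.64 to 0.04), and for CDC45 -0.25 ± 0.18 (95% interval -0.65 to 0.14). For CDC45 it ran from -0.39, when the third treated array of DOHH2 was left out, to -0.13, when the first DMSO array of TMD8 was left out. The intervals of MCM4 and CDC45 hold both no difference and a clearly smaller response in DOHH2.

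**Figure D4:**
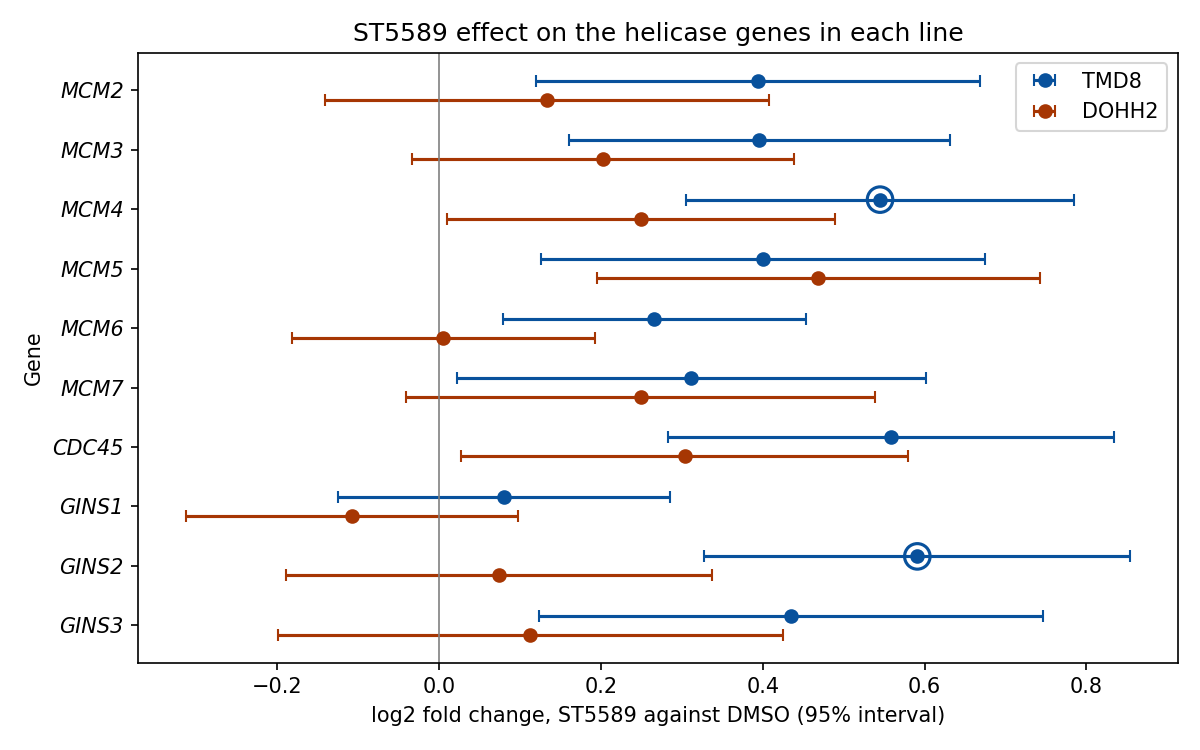
log2 fold change of each helicase gene, ST5589 against DMSO, with its 95% interval from limma, in TMD8 (blue) and DOHH2 (brown); ringed points were called. The TMD8 point lies to the right of the DOHH2 point for every gene but MCM5, and the gap is widest for GINS2.

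Averaged over both lines, which uses the same arrays as the comparisons within lines, 3 of the 10 genes were called higher, against 0.377% of all genes. MCM4 rose by a log2 fold change of 0.40 ± 0.08 (limma adjusted p = 0.0321). MCM5 rose by 0.43 ± 0.09 (limma adjusted p = 0.0434), and CDC45 by 0.43 ± 0.09 (limma adjusted p = 0.0474). A value above 0 was seen for 9 of the 10 genes, GINS1 being at -0.01, against 54.5% of all genes. Before adjustment 9 of the 10 had a limma p under 0.05 on the higher side, against 5.99% of all genes. All 3 adjusted p-values were close to the threshold, and 0 to 2 of the 10 genes were called when single arrays were left out. With an offset of 16, with the common median and with the replicate block, 0 of the 10 were called, and the common median left 0 genes called of 85 over the whole array.

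The lines already differed in the absence of the compound, in the helicase genes about as often as in genes at large. Under DMSO, GINS2 was 10.93 ± 0.18 (SD, n = 3) in DOHH2 and 9.72 ± 0.20 (SD, n = 3) in TMD8, 2.31-fold higher in DOHH2 (limma adjusted p = 1.6e-06). MCM7 was 1.58-fold higher in DOHH2 (limma adjusted p = 8.8e-04), with all 3 probes on that side, and MCM6 was 1.28-fold higher (limma adjusted p = 0.0030). The call of MCM6 was lost with arrays scaled to a common median (limma adjusted p = 0.165), which left 2 of the 10 genes called higher. MCM5 had a fold of 0.63 (limma adjusted p = 4.8e-04) and GINS3 a fold of 0.63 (limma adjusted p = 0.0013), both lower in DOHH2. These 3 higher and 2 lower genes of 10 are close to the shares over all genes, 26.1% called higher and 27.7% called lower between the lines.

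The order of the 4 groups was thus not the same for each gene. For GINS2, the TMD8 DMSO arrays were lowest, the TMD8 ST5589 arrays next, and both DOHH2 groups highest and overlapping. For GINS3 the order of the lines was turned, with both DOHH2 groups overlapping at the bottom and below the lowest TMD8 array. For MCM5, the DOHH2 DMSO arrays were lowest, the DOHH2 ST5589 and TMD8 DMSO arrays next, each overlapping its neighbour below, and the TMD8 ST5589 arrays highest. For MCM6, TMD8 DMSO stood below the other groups, which overlapped in part. By the brightest probes of MCM2, MCM3, MCM4 and CDC45, the TMD8 ST5589 mean was the highest of the 4. The DMSO groups of both lines overlapped for these genes. The second probes of MCM3 and MCM4 gave another order. Under DMSO they read higher in DOHH2, by 0.47 ± 0.17 and 0.59 ± 0.19 on the log2 scale. Under ST5589 the second MCM3 probe had 10.47, 10.43 and 10.35 in TMD8 and 10.74, 10.64 and 10.21 in DOHH2. The second MCM4 probe had 9.46, 9.68 and 9.62 in TMD8 and 10.31, 9.82 and 9.65 in DOHH2.

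The helicase genes varied together over the treated and DMSO arrays. With the mean of each line subtracted, the 45 pairs of helicase genes had a median Pearson r of 0.62 over the 12 arrays, all above 0 and from 0.02 to 0.94. The closest pairs were MCM3 with MCM4 (0.94), CDC45 with GINS2 (0.91) and CDC45 with GINS3 (0.91). The loosest, GINS1 with GINS3 (0.02), MCM5 (0.03) and CDC45 (0.04), all involved the dim GINS1 probe. These values are a description: the points share arrays and the difference between treated and DMSO arrays. No such value is given for pairs of other genes.

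Of the 11409 other genes, those whose profile was most like the mean profile of the 10 were CDK2 (Pearson r = 0.956), UNG (0.932), E2F2 (0.927), NFE2L1 (0.927) and POLQ (0.925), over the 12 arrays with the mean of each line subtracted. CDK2 is the kinase of cyclin E and cyclin A, UNG a uracil DNA glycosylase, E2F2 an activator of the E2F family, NFE2L1 a transcription factor of proteasome genes and POLQ the DNA polymerase theta. Their log2 fold changes in TMD8 were 0.44, 0.53, 0.58, 0.51 and 0.30 in that order, of which that of UNG was called (limma adjusted p = 0.0247). In DOHH2 they were 0.18, 0.17, 0.22, 0.22 and 0.17. The profile used to pick these genes holds the difference between treated and DMSO arrays. Their direction therefore follows from the choice and is no separate result.

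Genes that act beside the helicase were read in the same fit. Of 21 genes of the replicative polymerases, the PCNA clamp, its loader and their partners, 2 were called higher and 0 lower in TMD8, against 0.56% and 0.368% of all genes. The median log2 fold change was 0.32, and 20 of 21 were above 0, against 52.7% of all genes. The called genes were POLD3, an accessory subunit of DNA polymerase delta (0.61 ± 0.10; limma adjusted p = 0.0103), and RFC1, the large subunit of the clamp loader (0.42 ± 0.09; limma adjusted p = 0.0356). In DOHH2, 0 of the 21 were called with limma, against 0.0175% of all genes in each direction. Before adjustment 2 had a p under 0.05 on the higher side, against 2.58% of all genes, and the median was 0.10.

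The 17 genes of origin licensing and firing load or activate the MCM ring or regulate these steps. Of the 17, 0 were called in TMD8 with limma, against 0.56% of all genes higher and 0.368% lower. Before adjustment 6 had a p under 0.05, all higher, against 4.32% of all genes. Their median was 0.09 and their log2 fold changes ran from -0.15 to 0.93. The highest was CDT1, the loader of the MCM ring, at 0.93 ± 0.24 (limma adjusted p = 0.132), a gene singled out after its value was seen. In DOHH2, 0 of the 17 were called with limma, against 0.0175% of all genes in each direction, and the median was -0.01. Before adjustment 4 had a p under 0.05, all higher, against 2.58% of all genes. Of 7 genes of fork protection and MCM relatives, 0 were called and 0 had an unadjusted p under 0.05 in either line, with a median of 0.13 in TMD8 and -0.002 in DOHH2. For so short a list a count of 0 is near the share of all genes (0.56% called higher in TMD8 and 0.0175% in DOHH2, and 4.32% and 2.58% higher before adjustment).

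Genes of mitosis, expressed later in the cycle, lay on the opposite side. Of 18 such genes, 11 were called lower in TMD8, against 0.368% of all genes, and 0 higher, against 0.56%. The median log2 fold change was -0.68, and all 18 had every treated array below every DMSO array, against 8.16% of all genes. Lowest were KIF20A, a cytokinesis kinesin (-1.23 ± 0.10; limma adjusted p = 2.0e-04), PLK1, a mitotic kinase (-1.15 ± 0.11; limma adjusted p = 2.8e-04), and CENPA, the centromeric histone H3 variant (-0.96 ± 0.11; limma adjusted p = 5.2e-04). In DOHH2, 1 of the 18 was called lower, KIF20A (-0.68 ± 0.10; limma adjusted p = 0.0495), against 0.0175% of all genes. The median was -0.36, and 10 of 18 had the groups apart on the lower side, against 3.91% of all genes. In each of the 6 treated arrays the helicase genes averaged above, and the mitosis genes below, the DMSO mean of the line. The mitosis averages were -0.69, -0.63 and -0.72 in TMD8 and -0.45, -0.21 and -0.39 in DOHH2. TMD8 DMSO arrays 2 and 3 had the same signs with smaller values (helicase 0.06 and 0.09, mitosis -0.01 and -0.04). The other DMSO arrays did not.

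**Figure D5:**
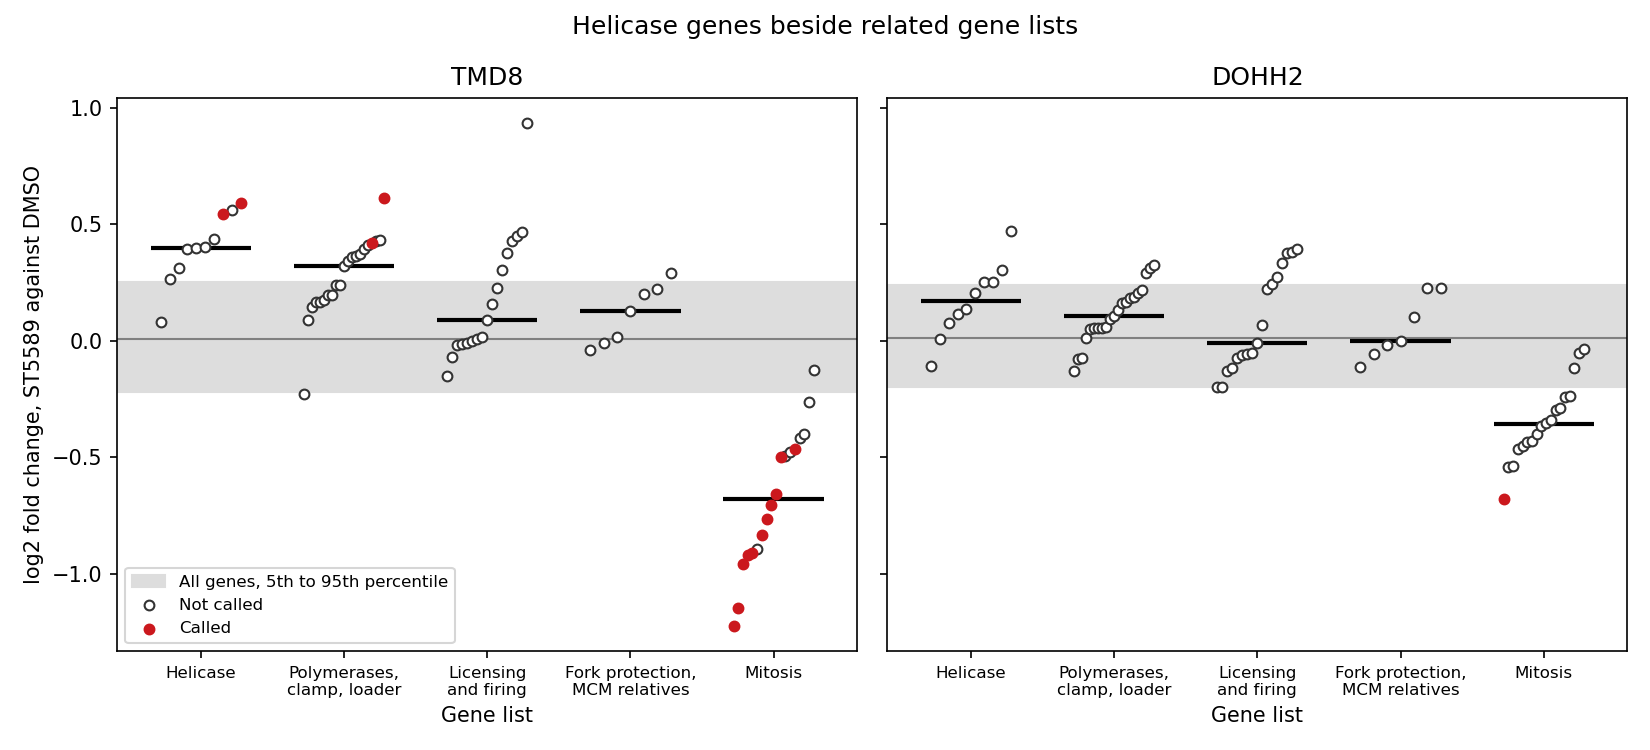
log2 fold changes, ST5589 against DMSO, of the helicase genes and of 4 related lists in TMD8 and DOHH2; each point is a gene, red where called, the black line is the median of the list and the grey band holds the 5th to 95th percentile of all genes. The helicase and polymerase lists lie mostly above the band in TMD8 and mostly within it in DOHH2, licensing genes are spread out, and most mitosis genes lie below it.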

How the data were processed

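Total RNA of TMD8 and DOHH2 cells was isolated and biotin-labelled cRNA hybridised to 12 arrays of 47231 probes, per the labels' protocols. GenomeStudio was used per the submitters' processing notes, with the version not given. The authors deposited probe intensity values that were not normalized, and a table of processed log2 values with their normalization not given in the sources used here. The deposited log2 values ranked the probes of each array as the intensities did, with the same median of 6.67 in each array, and served as an alternative only.

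Intensities were corrected with normexp (offset 50), quantile-normalized and put on the log2 scale in limma 3.58.1 (R 4.3.3). A probe counted as above background beyond 2.33 SD over the background mode, the SD being mirrored from the values below it. Probes above background in all 3 arrays of a group were kept, 20535 in all, of which 15380 had 1 gene symbol in the platform annotation, updated to current symbols. Each gene was represented by its brightest kept probe. The 11419 genes were fitted together over all 12 arrays with lmFit and eBayes, 1 coefficient per group, two-sided, with Benjamini-Hochberg adjustment over all genes. The number of arrays limits the precision: within a line the standard error of log2 fold changes had a median of 0.11. The fit was also run on simulated data, of which no outcome is reported here.

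The 10 genes, the related lists and the tests were chosen with earlier results of these data known. The genes named beside them were, by rule, up to 3 called genes of each related list and line with the largest change, AURKA, and the 5 genes most like the mean profile; CDT1 was added outside the rule after its value was seen. The replicate numbers showed no pairing of the samples (correlations of the deviations of same-numbered arrays between -0.49 and 0). With 3 arrays per group these values cannot exclude a pairing. Promoter windows came from RefSeq, GRCh38.p14. The alternatives tried were no background correction, an offset of 16, scaling to a common median, the authors' log2 values, 2 other filters, the mean of a gene's probes, a replicate block, each line alone, array weights and leaving out single arrays.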

Additional observations from a re-analysis of the deposited data

How the results depend on the processing

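The 10 helicase genes kept a log2 fold change above 0 in TMD8 in each of the 23 alternatives in which they had a value. Some of these could not change it, among them leaving out a DOHH2 array, the replicate block and each line alone. The TMD8 fold changes are the same there by construction. With arrays scaled to a common median, MCM6 (0.003) and MCM7 (0.007) were barely above 0. Of 1115 values of single genes over all comparisons, 63 lost a call, 12 gained a call, 0 changed sign with a call, and 33 changed sign without a call before or after. The cause of these moves was not tested. In TMD8, MCM4 lost its call in 11 of the alternatives and GINS2 in 10, while CDC45 gained a call in 3. The count of helicase genes called higher in TMD8, 2 in the chosen processing, was 0 with an offset of 16, 0 with arrays scaled to a common median, 1 with the mean of a gene's probes, 0 with the replicate block, 7 with array weights and from 0 to 3 without 1 array. Averaged over both lines that count, 3, was 0 with an offset of 16, 0 with the common median, 0 with the replicate block and from 0 to 2 without 1 array. Between the lines under DMSO, 3 to 4 of the 10 were called higher and 2 lower without 1 array, and 2 higher with the common median, where MCM6 lost its call. With the mean of a gene's probes and with array weights 4 were called higher, MCM4 among them (limma adjusted p = 0.0358 and 0.0217).

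Over all genes, scaling to a common median gave 9 calls in TMD8 (106 in the chosen processing), 0 in DOHH2 (4), 0 for the difference of the effects (2), 0 for the average (85) and 3923 for the lines under DMSO (6149). The replicate block, for which the values showed no pairing but could not exclude it, gave 40, 0, 1 and 46 calls for TMD8, DOHH2, the difference and the average. Array weights gave 455, 15 and 270 calls for TMD8, the difference and the average. For DOHH2 the count was 1 with no background correction, 2 with an offset of 16, 1 with the filter on all 12 arrays and 1 with the line fitted alone. For the difference it was 1 with no background correction, 4 with an offset of 16 and 1 with the authors' log2 values. Without the 3 arrays farthest from their groups, chosen after seeing the data, it was 160 for TMD8, 2 for DOHH2 and 1 for the difference. Leaving out 1 array gave 50 to 117 calls for TMD8, 1 to 5 for DOHH2, 0 to 18 for the difference and 64 to 82 for the average. GINS1 had no value under the filter on all 12 arrays. The difference, the average and the comparison of the lines cannot be had with each line fitted alone.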
